A study of Mus musculus with 4 samples.

Results

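Pericytes and vascular smooth muscle cells, together called mural cells, wrap the endothelial tubes of blood vessels. Endothelial cells secrete the growth factor PDGF-B, which binds PDGF receptor beta on mural cells and draws them along the growing vessel, and in the forebrain most mural cells derive from the neural crest rather than from neural progenitors. Pericytes cover brain capillaries and help to form the blood-brain barrier, while smooth muscle cells surround arteries and carry the contractile proteins that set vessel tone. The 9 genes described here are Pdgfb, Pdgfrb, Rgs5, Abcc9, Cspg4, Higd1b, Anpep, Acta2 and Tagln. They were chosen by name as pericyte and mural cell genes, and all 9 were found among the 27293 genes of the count table of 4 libraries.

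RNA of telencephalic tissue (the cerebral cortex, in the study's methods) was collected from C57BL/6 mouse embryos at embryonic day 13 and sequenced in 4 libraries. Of these, 2 were labelled WT, for wild type. The other 2 had the genotype STINGf/f;Nestin-Cre and are called cKO here, since both STING alleles were floxed and Cre was driven by the Nestin promoter, which is active in neural progenitors. Where Cre acted was not measured, and whether it acted in any mural cells is not known from these data. The library called WT 2 carries the genotype label WT, but its title ends in "nes" where that of WT 1 ends in "wt". What "nes" stands for is not explained. No source used here says whether the libraries of a group came from separate embryos or pools, so p-values measure the spread between these libraries only.

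Total counts ran from 17209654 to 18533391 per library. The targeted gene, listed as Tmem173, was counted 20 and 19 times in the WT pair and 18 and 22 times in the cKO pair, each pair in the order library 1, library 2, which is kept throughout. Its gene-level count did not set the labels apart, and WT and cKO mean the libraries labelled so. This count takes in every cell of the tissue and any exon that Cre leaves in place, so it does not check the deletion. Genes of cortical progenitors and neurons were abundant in every library, with a summed level of 5487 to 6283 CPM over 12 genes, Emx1 and Emx2 among them, where CPM is the count scaled to a library size of 1000000 with edgeR's TMM factors. WT 1 stood apart from the other libraries in genes of tissues next to the cortex. The 20 listed genes of meninges and mesenchyme, the connective tissue around the brain, summed to 385 and 108 CPM in the WT pair and to 139 and 85.5 CPM in the cKO pair. The 10 listed choroid plexus genes summed to 62.5 CPM in WT 1 and to 7.38 to 10.6 CPM in the other libraries. The members and lists are therefore given with and without it, as are other genes whose printed fold change turned sign without it.

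Acta2 encodes the smooth muscle alpha-actin of contractile mural cells and was the member with the widest difference between groups, so its sequences are shown first. It is placed at chr19:34241090-34255336 (minus strand). The 250 bases before its RefSeq start site (GRCm38.p6, minus strand, chr19:34255374-34255623) are printed 5′ to 3′, with the matches to the CArG box in capitals. The CArG box is the site bound by serum response factor, which drives smooth muscle genes, and it was searched as CC, then 6 bases of which at most 1 is C or G, then GG. The pattern reads alike on both strands.

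Acta2: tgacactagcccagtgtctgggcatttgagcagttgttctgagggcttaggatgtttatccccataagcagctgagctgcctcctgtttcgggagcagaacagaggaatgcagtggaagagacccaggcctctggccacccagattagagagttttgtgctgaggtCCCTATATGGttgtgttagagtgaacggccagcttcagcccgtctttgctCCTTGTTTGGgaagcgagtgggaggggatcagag

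The 2 matches begin 84 and 34 bases before the RefSeq start. Of 32841 promoter windows of this length, 8.59% hold such a match, and 1.47% hold a box with A or T at every central base. RefSeq windows were found for 5 members, Abcc9, Acta2, Anpep, Cspg4 and Rgs5, and Acta2 was the one with a match. Among 13 smooth muscle genes with a window, Myl9 and Srf, the gene of serum response factor itself, held a match.

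Smooth muscle alpha-actin belongs to a family of near-identical muscle actins, so reads could be shared between their genes. The first 60 coding bases of Acta2 (GRCm38, chr19:34252494-34252553, minus strand), of the skeletal actin gene Acta1 (chr8:123893638-123893697, minus strand) and of the cardiac actin gene Actc1 (chr2:114051972-114052031, minus strand) are set side by side, with capitals where a base differs from Acta2.

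Acta2: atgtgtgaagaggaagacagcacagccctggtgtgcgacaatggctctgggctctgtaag
Acta1: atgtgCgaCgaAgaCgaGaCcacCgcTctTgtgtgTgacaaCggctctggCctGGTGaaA
Actc1: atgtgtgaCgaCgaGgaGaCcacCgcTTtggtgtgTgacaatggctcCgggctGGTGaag

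Acta1 differs from Acta2 at 17 of the 60 bases and Actc1 at 14, and over the whole coding sequence of 1134 bases the identity to Acta2 is 85.4% and 82.5%. Of the 50-base words in the Acta2 transcript, 0.352% also occur in a transcript of another gene. That share is 0% for Pdgfrb, Pdgfb, Rgs5, Cspg4, Anpep and Higd1b and 2.68% for Abcc9. For Tagln it is 48.3%, all of it shared with Pcsk7 and Gm48529, whose exons overlap those of Tagln on the opposite strand. Of its 1988 exon bases in GENCODE M21, 108 lie under the protein-coding gene Pcsk7 and 1241 under the antisense gene Gm48529, which is not listed in the count table. The strand setting of the authors' counting is not given in the sources used here, so reads of these stretches may not have been told apart.

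Levels between genes were compared per length, as counts per kilobase of exon scaled to the same total in every library (TPM). Rgs5, which encodes a regulator of G-protein signalling and marks pericytes of growing vessels, was highest at 33.9 TPM on average over the 4 libraries (24.3 to 46.1). Pdgfrb followed at 16.1 (12.5 to 21.6), Pdgfb at 10.3 (8.32 to 11.5) and Abcc9 at 5.76 (4.02 to 7.83). The ranges of these neighbours did not overlap. Higd1b at 2.76 (1.86 to 3.22), Anpep at 2.29 (1.48 to 4.51), Cspg4 at 2.28 (1.78 to 2.61) and Acta2 at 2.23 (0.976 to 5.63) overlapped in range, and no order can be read among them. The range of Abcc9 also overlapped those of Anpep and Acta2, so no order can be read between Abcc9 and these genes either. Tagln came last at 0.0790.

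Across the group comparison, 7 of the 8 members that could be tested had a log2 fold change below 0, that is a lower value in cKO, where 52.1% of all 16145 genes tested did. The median of the 8 was -0.34, against -0.0094 over all genes tested. Of the 8 members, 1 (Acta2) was called at the study's thresholds, at least 2-fold apart with p no greater than 0.05 before adjustment, and it was lower in cKO. The same call was made for 0.669% of all genes in that direction and for 0.142% in the other, in which 0 members were called. No member had an adjusted p under 0.05 in edgeR's quasi-likelihood fit, and 0% of all genes did. Before adjustment, p was no greater than 0.05 for 1 member and for 1.23% of all genes, and with DESeq2 0 members reached the study's thresholds or an adjusted p under 0.05. In 3 members (Pdgfb, Abcc9 and Acta2) the cKO pair lay wholly below the WT pair, as in 10.8% of all genes, and in 0 members they lay above, as in 11% of all genes. Of the 8 members 7 were highest in WT 1, as were 25.1% of all genes tested. In bulk tissue, fewer cells of a type and less RNA per cell cannot be told apart. Without WT 1 the median of the 8 was -0.068 and 0 members were called, and 0 were called either without cKO 1 or without cKO 2. Without WT 2 the median was -0.57 and 2 members (Acta2 and Anpep) were called, 1 of them (Acta2) with an adjusted p under 0.05 in edgeR's fit. Calls over all genes also rose without WT 2, from 131 of 16145 to 476 of 16943, and those with an adjusted p under 0.05 from 0 to 116.

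**Figure D1:**
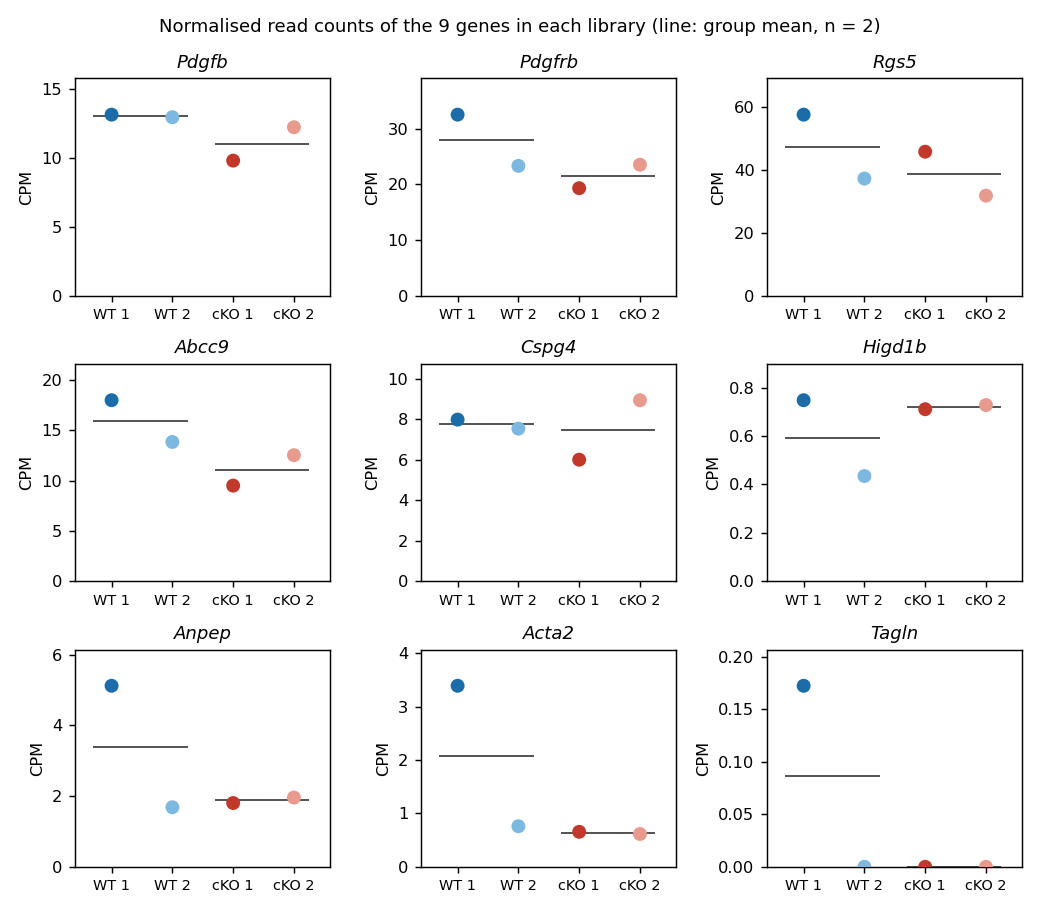
Normalised read counts (CPM, y axis from 0) of the 9 genes in the 4 libraries, with 1 point per library and a line at each group mean. WT 1 is the highest library for 8 of the 9 genes, and Acta2 and Anpep are nearly level in the other 3 libraries.

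Neither the ligand nor its receptor was called. Pdgfb (chr15:79995900-80014808, minus strand) had counts of 228 and 238 in the WT pair and of 179 and 218 in the cKO pair. The groups did not overlap, at 13.02 ± 0.133 CPM in WT and 10.99 ± 1.71 in cKO (SD, n = 2). Its log2 fold change was -0.24 with a 95% interval from -0.77 to 0.29, so a change beyond 0.585-fold or 1.22-fold lies outside the interval, and it was -0.23 without WT 1. For Pdgfrb (chr18:61045150-61085061, plus strand) the WT pair held 565 and 429 counts and the cKO pair 353 and 420. The normalised values of WT 2 (23.3 CPM) and cKO 2 (23.5 CPM) crossed, so the groups overlapped. Its log2 fold change was -0.38 (95% interval from -0.90 to 0.14, adjusted p = 0.9999 in edgeR's fit), and -0.12 without WT 1. Between the WT libraries alone, the receptor in WT 1 was at 1.39 times its level in WT 2, with an exact Clopper-Pearson 95% interval of 1.23 to 1.58 that covers counting error only. The groups differed less than this, with WT at 1.30 times cKO in the fit.

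Rgs5 varied between libraries of either label. It is placed at chr1:169655501-169695813 (plus strand) and had 1000 and 685 counts in WT against 837 and 568 in cKO. The first library of each group was the higher one, and the groups overlapped. The ratio of WT 1 to WT 2 was 1.55 (1.40 to 1.71, counting error only) and that of cKO 1 to cKO 2 was 1.44 (1.29 to 1.60), while the groups were 47.4 ± 14.4 and 38.8 ± 9.87 CPM (SD, n = 2). The log2 fold change was -0.29 (95% interval from -0.89 to 0.31) and turned to 0.059 without WT 1.

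Abcc9 encodes the sulfonylurea receptor subunit of the potassium channel of mural cells, which opens when ATP is low and relaxes the vessel. Abcc9 (chr6:142587862-142702315, minus strand) was counted 313 and 255 times in WT and 174 and 224 times in cKO. The groups did not overlap, with 15.9 ± 2.94 CPM in WT and 11.02 ± 2.14 in cKO (SD, n = 2). The log2 fold change of -0.53 (95% interval from -1.11 to 0.044) did not pass, and was -0.33 without WT 1. Its pore partner Kcnj8 had 96 and 115 counts in WT against 70 and 102 in cKO, with a log2 fold change of -0.30 (95% interval from -1.04 to 0.43). The other channel of this kind, of neurons and endocrine cells, is built from Abcc8 and Kcnj11. Its 2 genes were more abundant per length, at 17.9 and 25.7 TPM against 5.76 for Abcc9 and 7.47 for Kcnj8, and had log2 fold changes of 0.27 and 0.22, neither of which passed.

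Cspg4 encodes the NG2 proteoglycan of the pericyte surface and later of oligodendrocyte precursors. It is placed at chr9:56865033-56899870 (plus strand), with 139 counts in each WT library and 110 and 160 in the cKO pair. The cKO libraries lay on either side of both WT libraries, and the log2 fold change was -0.055 (95% interval from -0.72 to 0.61), and -0.013 without WT 1. Higd1b, a small gene of the hypoxia-induced domain family that marks pericytes, is placed at chr11:102835849-102838040 (plus strand). Its counts were 13 and 8 in WT and 13 in each cKO library. At this depth its interval of the ratio of cKO to WT ran from 0.509 to 2.92, which takes in a 2-fold rise as well as no change. Its log2 fold change was 0.28, and 0.72 without WT 1.

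Acta2 was counted 59 and 14 times in the WT pair and 12 and 11 times in the cKO pair. WT 1 was far above the other 3 libraries, which lay between 0.616 and 0.760 CPM against 3.39 CPM in WT 1. The group values were 2.08 ± 1.86 CPM in WT and 0.636 ± 0.0285 in cKO (SD, n = 2), with a log2 fold change of -1.69 (SE 0.71, 95% interval from -3.33 to -0.056). The p was 0.0442 before adjustment and the adjusted p = 0.9999 in edgeR's quasi-likelihood fit. Without WT 1 the log2 fold change was -0.26 with an unadjusted p of 0.783, and without WT 2 it was -2.39 with an adjusted p of 0.0338 in the same test, as 1 of 116 genes with an adjusted p under 0.05 in that fit. Without cKO 1 or cKO 2 it stayed at -1.73 and -1.63 and the unadjusted p was 0.0966 and 0.115. DESeq2 gave an unadjusted p of 0.0515 for the same counts.

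Anpep encodes aminopeptidase N (CD13), a cell surface enzyme of brain pericytes and of fibroblasts. For Anpep (chr7:79821803-79861059, minus strand) the counts were 89 and 31 in WT and 33 and 35 in cKO. As for Acta2, WT 1 alone was high. The lowest library for Anpep was WT 2. The log2 fold change was -0.85 (95% interval from -2.08 to 0.38) and turned to 0.16 without WT 1. Without WT 2 it was -1.43 with an unadjusted p of 0.00607 and an adjusted p of 0.411 in edgeR's fit. The ratio of WT 1 to WT 2 was 3.04 for Anpep (2.00 to 4.74) and 4.46 for Acta2 (2.46 to 8.66), both intervals covering counting error only. For the summed genes of meninges and mesenchyme, tissues that also express both genes, that ratio was 3.56. It was 5.87 for the choroid plexus genes, 1.84 for those of red blood cells and 1.34 for the 19 endothelial genes found. The part of these tissues in the Acta2 and Anpep values was not tested.

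Tagln encodes transgelin, an actin-binding protein of contractile smooth muscle and of fibroblasts. It is placed at chr9:45929619-45936058 (minus strand), and its 3 counts were all in WT 1, with 0 elsewhere. A count of 0 allows up to 3 counts, or 0.162 to 0.174 CPM in these libraries, so all 4 values were at or under the limit and no fold change is given. It was the 1 member that did not pass the filter on low counts. Its relatives Tagln2 and Tagln3 had 579 to 717 and 4078 to 5249 counts, and log2 fold changes of 0.11 and 0.12 that did not pass. Of all 11 listed relatives of the members 9 were tested, with a median of 0.094 (0.050 without WT 1) and 0 called.

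**Figure D2:**
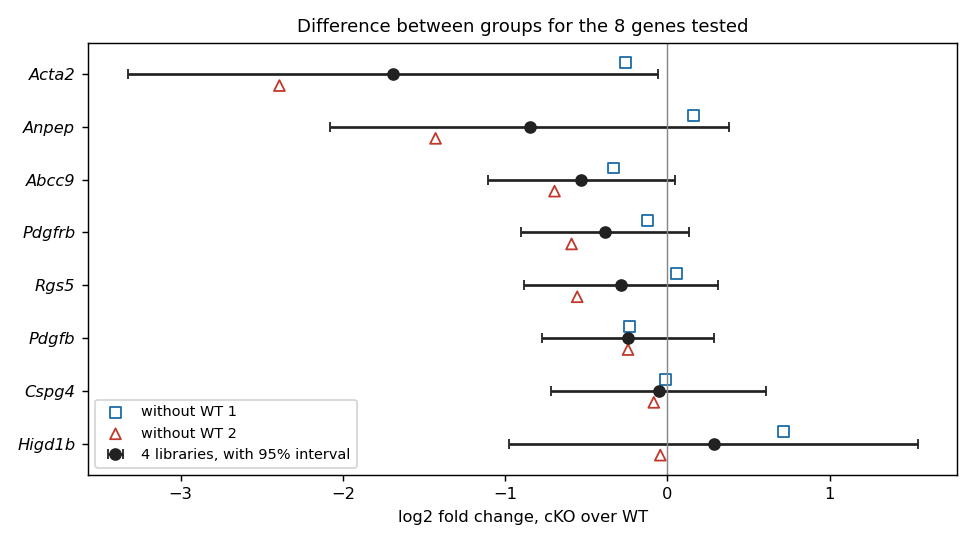
Log2 fold change of cKO over WT (x axis) for the 8 genes tested, with the 95% interval of edgeR's fit, and the same value without WT 1 (squares) and without WT 2 (triangles). The Acta2 interval ends at -0.056, just below 0, and the squares of Anpep, Rgs5 and Higd1b lie above 0.

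Further genes of mural cells had a similar median. Of 20 other pericyte genes, 19 could be tested, with 14 below 0 and 5 above, a median log2 fold change of -0.28 and 0 called in either direction. Without WT 1 the median was 0.032. Vtn, the vitronectin gene of pericytes, had 494 and 236 counts in WT against 217 and 291 in cKO, and a log2 fold change of -0.55 (95% interval from -1.39 to 0.29) that turned to 0.13 without WT 1. Ndufa4l2, a hypoxia-responsive mitochondrial gene, had -0.31 (95% interval from -1.10 to 0.47), and -0.041 without WT 1. The largest absolute changes were in P2ry14 (1.10, with 5 to 21 counts) and Tbx18 (-1.18, and 0.076 without WT 1), a transcription factor of mural and mesenchymal cells, and neither passed.

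Counts of the smooth muscle genes ranged widely. Of 20 smooth muscle genes 13 were tested, 9 below 0 and 4 above, with a median log2 fold change of -0.12 (0.0054 without WT 1) and 0 called. The largest absolute changes were in Des, the desmin gene, at 0.66 with 4 to 11 counts, and Tgfb1i1, a focal adhesion gene, at -0.44 with 128 to 207 counts, and neither passed. Myh11, the smooth muscle myosin, had 5 to 17 counts per library, Cnn1, calponin, 3 to 7, and Actg2, the enteric smooth muscle actin, 2 to 7. Others, also used outside smooth muscle, had more, such as the tropomyosin gene Tpm1 with 1641 to 1756 and Smtn (smoothelin) with 405 to 514, and the list summed to 335 to 389 CPM. Myocd, the coactivator that switches on the contractile genes, had 2 and 0 counts in WT against 0 and 1 in cKO. Srf, its DNA-binding partner in many cell types, had 1071 to 1433 counts and a log2 fold change of 0.087 (95% interval from -0.35 to 0.52). Myl9, a myosin light chain, had 105 to 186 counts and a log2 fold change of -0.12 (0.055 without WT 1). The actins of non-muscle cells, Actb and Actg1, had log2 fold changes of 0.094 and 0.046 (0.035 and -0.040 without WT 1), neither of which passed, while Acta1 had 6 to 17 counts and Actc1 0 to 5. Genes of skeletal muscle, another source of muscle actin, summed to 4.86 to 6.79 CPM, with 10 of 12 found, 5 tested, a median log2 fold change of -0.50 (-0.60 without WT 1) and 0 called. Myod1, which sets the muscle fate, had 4 counts in WT 2 and 0 in the others, Ttn (titin) had 10 to 26, Myh3 (embryonic myosin) 3 to 10 and Tnnc1 (troponin C) 2 to 13.

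The pathway that recruits mural cells was described with 23 genes, of which 21 could be tested, 19 below 0 and 2 above, with a median log2 fold change of -0.22 (-0.10 without WT 1). Among the other PDGF ligands, Pdgfa had 117 to 150 counts (log2 fold change -0.11), Pdgfc 179 to 275 (-0.078) and Pdgfd 0 to 18, which did not pass the filter. Pdgfra, the alpha receptor of mesenchyme and glial precursors, had 259 and 95 counts in WT against 129 and 91 in cKO, and its log2 fold change turned from -0.72 to 0.23 without WT 1. Notch3, a receptor that matures mural cells and is also expressed by neural progenitors, was at 52.1 TPM (46.2 to 55.9) and overlapped in range with Tgfbr1 (24.9 to 54.3), a TGF-beta receptor gene. Notch3 had a log2 fold change of 0.13 (95% interval from -0.23 to 0.50). S1pr1 and S1pr3, receptors for sphingosine 1-phosphate on vessel cells, were at -0.084 and -0.75, and the TGF-beta receptor genes Tgfbr1, Tgfbr2, Eng and Acvrl1 at -0.59 to -0.27, none of which passed. Without WT 1 these were at 0.046 for S1pr1, -0.24 for S1pr3 and -0.14 to 0.12 for the TGF-beta receptors, with Tgfbr2 above 0. Angpt1, the ligand by which mural cells steady the endothelial receptor Tek, had 111 and 110 counts in WT against 105 and 26 in cKO, so that cKO 2 alone was low. Tek itself was at -0.46 (-0.085 without WT 1) and the related receptor Tie1 at -0.22, and neither passed. The antagonist of Angpt1, Angpt2, was the 1 gene of the list called, lower in cKO. Angpt2 was counted 59 and 43 times in WT and 30 and 15 times in cKO, without overlap, with a log2 fold change of -1.20 (95% interval from -2.27 to -0.13, adjusted p = 0.9999 in edgeR's fit) that was -0.91 and no longer called without WT 1, and -0.79 and not called without cKO 2.

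Endothelial genes had a median close to that of the pericyte genes. Of the 19 found, 18 had a log2 fold change below 0, with a median of -0.28 (-0.12 without WT 1), and 1, the endothelial lectin gene Clec14a, was called lower at -1.12 (-0.61 and not called without WT 1, -0.92 and not called without cKO 2). Cdh5, the cadherin of endothelial junctions, had a log2 fold change of -0.54, less than 2-fold, Pecam1 of -0.28, Cldn5 of -0.12 and Ptprb, a phosphatase of the Tek pathway, of -0.64. Set against these genes in the same library, the summed mural genes overlapped between groups. The CPM of the 8 members other than Pdgfb summed to 0.250 and 0.227 of the endothelial sum in WT and to 0.252 and 0.210 of it in cKO. The cKO libraries were both the highest and the lowest of the 4. Rgs5 was the largest single part of this sum, at 0.115 and 0.0997 in WT and 0.138 and 0.0833 in cKO. Its order of libraries was that of the sum. With the Rgs5 proportion taken off, the rest of the sum was lower in both cKO libraries than in both WT libraries. The overlap of the sum thus holds only with Rgs5 included, and the margin between WT 2 and cKO 2 without it was narrow. Single members went either way. For Pdgfrb the proportion was 0.0648 and 0.0625 in WT and 0.0580 and 0.0616 in cKO, and for Abcc9 it was 0.0359 and 0.0371 in WT and 0.0286 and 0.0329 in cKO, both lower in cKO without overlap. For Higd1b, which had 8 to 13 counts, it was higher in cKO without overlap. The values were 0.00149 and 0.00116 in WT and 0.00214 and 0.00191 in cKO. Rgs5, Cspg4, Anpep and Pdgfb overlapped. For Acta2 it was also lower in cKO without overlap, at 0.00677 and 0.00204 in WT and 0.00197 and 0.00161 in cKO. WT 1 was far above the rest. How many of all genes part the groups in this proportion was not computed.

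**Figure D3:**
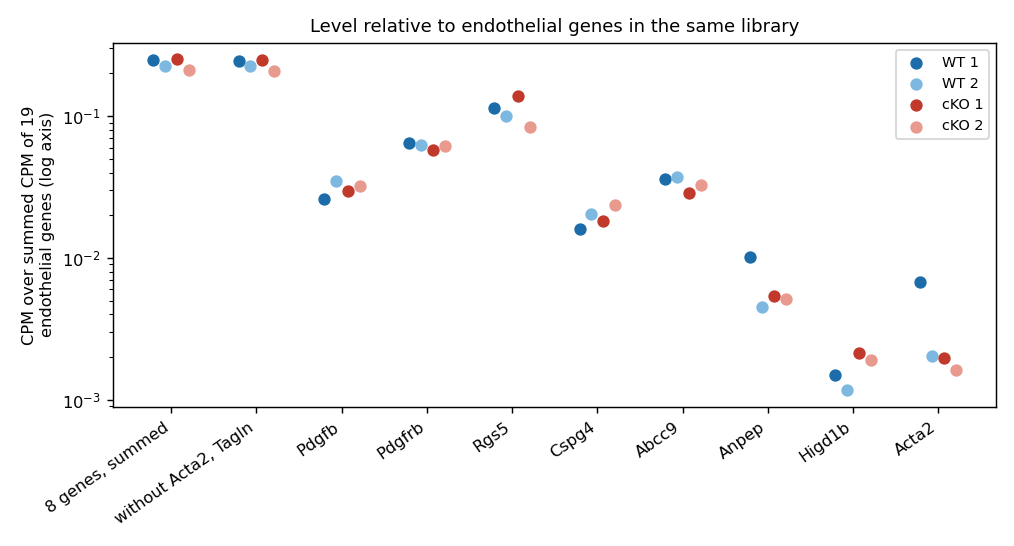
CPM of the summed mural genes and of each gene tested, divided by the summed CPM of 19 endothelial genes in the same library (log axis), with 1 point per library. The summed proportion lies between 0.210 and 0.252 in all 4 libraries, while Acta2 and Anpep are raised in WT 1.

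The genes whose pattern over the 4 libraries was nearest to that of Acta2 and Anpep, the members with the widest range, were found by the root-mean-square difference of log2 CPM after centring each gene. For Acta2 they were Npr3, Ppp1r3b, Lrrc23, Ccdc60 and Mrc1, at 0.0377 to 0.198 log2 units where the median gene was at 0.950. Npr3, a natriuretic peptide receptor, had 108 and 27 counts in WT against 25 and 22 in cKO. Those nearest to Anpep were Ptgds, Tgfbr3, Myof, Cd53 and Ctgf, at 0.0682 to 0.101 where the median gene was at 0.652. Ptgds, the prostaglandin D synthase of meninges and choroid plexus, had 90 and 36 counts in WT against 36 and 39 in cKO. All 10 were highest in WT 1, which follows from choosing them by likeness to members that peak there. Moreover, 4 libraries are too few for more than this description.

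Genes of other cell types were read in the same libraries. Of the 14 meningeal and mesenchymal genes tested, 3 were called lower in cKO and 0 higher, and the median log2 fold change went from -1.09 to 0.17 without WT 1. Col1a1 and Col1a2, the chains of type I collagen, had 1160 and 1303 counts in WT 1 and 106 to 221 and 184 to 341 in the other libraries, and Col3a1 had 1740 and 282 to 628. Without WT 1, 1 gene of the list was called, and Col1a2 turned from -1.59 to 0.21. All 4 choroid plexus genes tested (Aqp1, Otx2, Htr2c and Kcne2) were called lower, with a median of -2.996. Without WT 1 the median was -0.49, 0 were called and Kcne2 was above 0, at 1.24, while Kl (1 to 9 counts) and Folr1 (67 counts in WT 1 and 0 to 8 elsewhere) did not pass the filter. Of 10 microglial genes, Cx3cr1, C1qa and C1qb among them, 0 were called and the median was -0.12 (0.051 without WT 1), and the largest absolute changes were in P2ry12 (-0.31) and Tyrobp (-0.56, and 0.16 without WT 1). Of 10 red blood cell genes 0 were called, with a median of -0.39 (0.087 without WT 1). Hbb-y, an embryonic globin, had 8258 and 3357 counts in WT against 2976 and 4405 in cKO, and its log2 fold change turned from -0.68 to 0.17 without WT 1. Hba-x and Hbb-bh1 were at -0.83 and 0.014, and at 0.20 and 1.11 without WT 1. The 12 neural genes had a median of 0.026 (-0.053 without WT 1), with 0 called, and Dcx, a gene of young neurons, was at -0.30. No list held a gene at 0 in all 4 libraries.

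**Figure D4:**
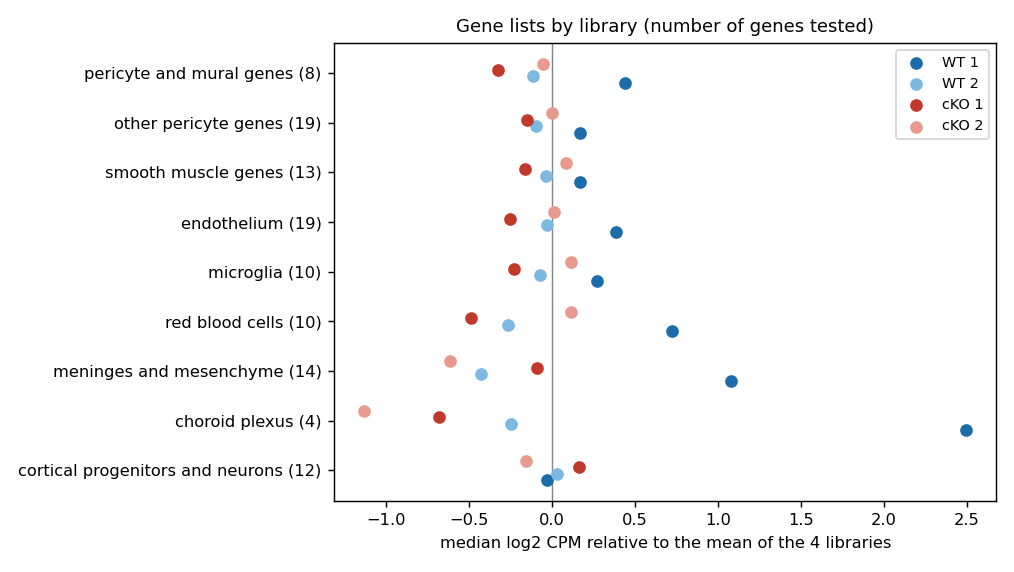
Median over the tested genes of each list of log2 CPM relative to the mean of the 4 libraries (x axis), 1 point per library. Of the lists plotted, WT 1 is to the right of the other libraries in all but that of cortical progenitors and neurons, where it is near 0.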

How the data were processed

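The authors deposited raw counts of reads per gene for 4 libraries. The submitters' processing notes name TopHat2 2.0.12, Bowtie2 2.2.3, HTSeq 0.6.0 and the build mm9, without their roles. Gene starts or ends matched GENCODE M21 to within 1 base for 97.3% of the 27232 genes shared with it, and positions were therefore read as GRCm38. Of 27304 rows, 11 without a gene (0.0403%) were left out. A second deposited table of WT 1 and cKO 1 holds identical counts for all 21342 shared genes. The deposited tables also hold the authors' fold changes, p-values and scaled values, which were not used.

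Counts were tested across all genes with edgeR 4.0.16 in R 4.3.3 (filterByExpr, TMM, quasi-likelihood test, no covariate), which left 16145 genes. SE is the log2 fold change over the square root of F. P-values were adjusted by the Benjamini-Hochberg method. Alternatives were RLE and upper-quartile scaling, other filters, DESeq2 1.42.0, a replicate block and each library left out. Lengths are the union of exons in GENCODE M21. Log2 CPM used a prior count of 2. The procedure was tested on simulated data. An exact permutation test of 2 libraries against 2 cannot reach 0.05 and was not used.

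The members and gene lists were chosen with earlier results of these data known. The rule for named genes took all members, the ligands and receptors of the pathway, channel partners and actin and transgelin relatives, the first 3 genes and the 2 largest changes of each list, every listed gene that was called, and the 5 genes nearest to the 2 members of widest range. Srf, Myocd and Kcnj11 fall outside this rule and were chosen after their values were seen, and Tpm1 and Smtn also fall outside it. Some genes that the rule takes are not reported here. Of the listed symbols, Gpr116, Myog and Myf5 were not matched. Sequences are from RefSeq (GRCm38.p6) and GENCODE M21.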

Additional observations from a re-analysis of the deposited data

How the results depend on the processing

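Of the 8 members tested, 1 was called at the study's thresholds, and 1 under RLE or upper-quartile scaling, under either other filter and with the replicate number as a replicate block. With DESeq2 or an unadjusted p of at most 0.01 there were 0, and with each library left out 0 to 2, where the lone library of a group is assumed to vary like the others. Without WT 2 the members called were Acta2 and Anpep. Over all genes, 131 were called at these thresholds, and 104 without WT 1, 476 without WT 2, 531 without cKO 1 and 121 without cKO 2, with 0, 7, 116, 105 and 0 at an adjusted p under 0.05. Members with an adjusted p under 0.05 numbered 0 in every fit but that without WT 2, which gave 1 (0 to 1 with libraries left out). The median log2 fold change of the members kept its sign throughout, from -0.57 without WT 2 to -0.068 without WT 1. Members whose groups did not overlap numbered 3, and 5 to 7 with a library left out, since fewer libraries then have to part. The ratio of the mural to endothelial proportion, cKO over WT, was 0.967, and 0.978 without Acta2 and Tagln. These genes are a small part of the sum, with Acta2 at 0.00677 of 0.250 in WT 1, so leaving them out could move it little. No setting left out Rgs5, the largest part, without which the cKO libraries lay below the WT libraries. With libraries left out, signs turned for Rgs5 (-0.57 to 0.059, above 0 without WT 1), Anpep (-1.43 to 0.16, above 0 without WT 1), Higd1b (-0.044 to 0.72, below 0 without WT 2) and Cspg4 (-0.36 to 0.21, above 0 without cKO 1). The shared replicate numbers are not stated to mark a litter or batch, and deviations of WT 1 and cKO 1 correlated over genes at 0.108. The replicate block moved the calls over all genes from 131 to 208, with 5 at an adjusted p under 0.05. The filter of 1 count in any library moved the calls to 405, with 65 at an adjusted p under 0.05. Fitting each list without WT 1 was chosen after seeing the data. Higd1b and Tagln were limited by depth.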
